A study of Mus musculus with 2 samples.

Results

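The Wnt, GSK3 and TCF genes examined were Ctnnb1, Gsk3a, Gsk3b, Axin1, Axin2, Apc, Tcf7l1, Tcf7, Lef1 and Lrp6. Their rows were taken from the deposited count table by gene symbol, and 10 of 10 were found among 22556 genes. The libraries were made from mouse embryonic stem cells (mESCs) of the iXist-ChrX-Dom line before any induction. This is a female line from a cross of Dom/129S with Cast, in which a TetOn promoter replaces the Xist promoter on the Dom/129S X chromosome. The cells were untreated (0 h), were grown in serum with LIF, a cytokine that maintains mESCs, and were separated from inactivated fibroblast feeders by pre-plating. The series holds 1 group of 2 replicates of this engineered line, so it compares no treatments. None of the labels says whether the replicates were separate cultures. The p-values below set the difference between these 2 libraries against counting error only, and do not measure variation between cultures. The cell type label reads "mESC to NPC" (neural precursor cell), although the title, source and time all name mESCs.

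Canonical Wnt signalling controls how much beta-catenin, the protein of Ctnnb1, reaches the nucleus. Without a Wnt ligand, a complex built on Axin and Apc presents beta-catenin to GSK3, which phosphorylates it for degradation. Ligand binding to Frizzled and LRP receptors stops this, and beta-catenin then joins TCF and LEF proteins at DNA. In mESCs, where GSK3 inhibitors are widely used to support self-renewal, Tcf7l1 acts mainly as a repressor of pluripotency genes, and Axin2 is a widely used readout of the pathway.

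The count table held 23716499 counts for replicate 1 and 20275749 for replicate 2, and 13834 and 12778 genes had at least 10 counts. At these depths a gene with 0 counts may hold as many as 3, equal to 0.126 and 0.148 CPM (counts scaled to 1000000 per library), and floors and intervals cover counting error only. The 2 libraries stood apart. Of 14536 genes with at least 10 counts in total, 60.8% differed between them when their paired counts were compared by an exact binomial test (two-sided, Benjamini-Hochberg adjustment at 0.05), and 45.7% of genes tested were lower in replicate 2. Of 10 embryonic stem cell markers, 10 reached a mean TPM of 1 (counts per kb of gene, scaled to 1000000 per library) with the deposited gene length and 9 with exonic length, where Utf1 (9 and 4 counts) was at 0.757. Their summed TPM with the deposited length, used for all marker sums here, was 8668 in replicate 1 and 6725 in replicate 2. Pou5f1, which encodes the pluripotency factor Oct4, had 1129 and 142 counts, and Dppa5a, another pluripotency marker, had 2915 and 298. In the same TPM, Dppa5a was at 1713 and 230 and Pou5f1 at 160 and 26.5. Klf2 (488 and 325), Tfcp2l1 (91.1 and 75.0) and Esrrb (18.2 and 8.62) were also lower in replicate 2. Nanog (1270 and 1257) and Tdgf1 (3618 and 3384) moved less, and Zfp42 (644 and 747) and Klf4 (661 and 669) were higher. Of 9 neural precursor markers found, 3 reached 1 TPM, with summed TPM of 233 and 266. Nearly all of that was Vim, an intermediate filament gene also expressed by fibroblasts (mean 233 TPM), followed by Nes at 12.9 and Tubb3 at 2.50 (54 and 18 counts, or 3.48 and 1.52 TPM). The neural factor Pax6 was at 0.902 TPM (46 and 23 counts), and Sox1 and Olig2 had 0 counts. Of 15 feeder fibroblast markers, 4 reached 1 TPM, with summed TPM of 151 and 141. These were the fibronectin gene Fn1 at 76.9 TPM, Twist1 at 36.8, Sparc at 28.8 and Thy1 at 2.25 (32 and 2 counts), whereas Lum had 0 counts in both libraries. Of 8 primitive endoderm markers, 3 reached 1 TPM, with sums of 7.24 and 7.93. The part of these differences in the results below was not tested.

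Promoter windows show where the genes start and whether the letters that TCF and LEF proteins prefer occur there. RefSeq windows on GRCm38.p6, each of 300 bases (250 before and 50 after a start), were used for 7 of the 10 genes, in 12 windows. No window was available for Axin1 and Lrp6, and windows on the chromosome of Apc were left out, so these genes are not covered. Both strands were searched for CTTTGA and CTTTGT, which cannot match at the same position. Over 32851 mouse windows, 16.0% held CTTTGA, 18.7% held CTTTGT and 31.2% held either, against 4 of the 12 windows here. Axin2 is shown as the pathway readout without a match, at chr11:108920099-108920398 on the plus strand. Lef1, which encodes a factor that binds this motif, is shown at its first start, chr3:131110047-131110346, and at an internal start, chr3:131156044-131156343, both on the plus strand. Gsk3a, at chr7:25237802-25238101 on the minus strand, and Gsk3b, at chr16:38088751-38089050 on the plus strand, are shown as the pair of kinase genes whose order depended on the gene length used. Tcf7l1, at chr6:72788996-72789295 on the minus strand, is shown as the repressor of the family. Capitals mark a match, read as TCAAAG or ACAAAG where it lies on the other strand.
Axin2: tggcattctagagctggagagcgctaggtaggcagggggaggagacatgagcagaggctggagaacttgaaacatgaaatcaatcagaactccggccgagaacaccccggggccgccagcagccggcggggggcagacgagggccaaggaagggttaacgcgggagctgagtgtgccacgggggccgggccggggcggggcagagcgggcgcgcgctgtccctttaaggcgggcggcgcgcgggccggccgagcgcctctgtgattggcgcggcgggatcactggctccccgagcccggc
Lef1 first start: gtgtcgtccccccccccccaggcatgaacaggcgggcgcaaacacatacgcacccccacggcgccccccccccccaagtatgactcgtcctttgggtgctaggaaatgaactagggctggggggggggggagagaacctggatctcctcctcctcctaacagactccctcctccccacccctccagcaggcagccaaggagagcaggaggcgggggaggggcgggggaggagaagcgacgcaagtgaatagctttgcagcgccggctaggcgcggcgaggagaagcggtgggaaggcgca
Lef1 internal start: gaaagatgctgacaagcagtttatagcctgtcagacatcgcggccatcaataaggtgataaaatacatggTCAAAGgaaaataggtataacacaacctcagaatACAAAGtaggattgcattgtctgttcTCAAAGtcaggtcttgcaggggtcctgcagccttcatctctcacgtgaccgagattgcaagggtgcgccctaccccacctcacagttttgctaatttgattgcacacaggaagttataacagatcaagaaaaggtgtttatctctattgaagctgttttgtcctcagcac
Gsk3a: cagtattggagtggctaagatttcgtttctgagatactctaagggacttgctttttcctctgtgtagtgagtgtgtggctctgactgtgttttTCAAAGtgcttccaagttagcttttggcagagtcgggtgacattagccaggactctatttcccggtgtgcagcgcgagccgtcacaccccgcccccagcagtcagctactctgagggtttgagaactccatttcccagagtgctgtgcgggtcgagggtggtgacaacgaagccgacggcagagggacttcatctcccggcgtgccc
Gsk3b: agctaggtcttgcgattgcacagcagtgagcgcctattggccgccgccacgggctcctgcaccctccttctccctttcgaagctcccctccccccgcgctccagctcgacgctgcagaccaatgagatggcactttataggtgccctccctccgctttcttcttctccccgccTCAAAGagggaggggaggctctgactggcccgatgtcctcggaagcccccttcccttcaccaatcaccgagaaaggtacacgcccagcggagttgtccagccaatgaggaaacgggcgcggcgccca
Tcf7l1: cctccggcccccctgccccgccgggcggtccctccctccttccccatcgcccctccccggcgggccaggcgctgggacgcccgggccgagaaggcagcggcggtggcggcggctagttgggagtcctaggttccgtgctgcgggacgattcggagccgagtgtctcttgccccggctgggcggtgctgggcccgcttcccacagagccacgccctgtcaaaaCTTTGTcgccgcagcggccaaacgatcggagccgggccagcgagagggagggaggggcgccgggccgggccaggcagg
Axin2 and the first Lef1 start held neither motif in these 300 bases. The internal Lef1 start, 45998 bases downstream of the start of the gene in the count table, held 2 CTTTGA and 1 CTTTGT. Gsk3a and Gsk3b each held 1 CTTTGA, and Tcf7l1 held 1 CTTTGT. Windows of Ctnnb1 (2), Tcf7 (2) and the other Lef1 starts (2) held neither. The Ctnnb1 windows were the richest in CpG, with 46 and 51 CpGs against a median of 7 over all windows, and the internal Lef1 start held 5. These matches are letters in a window, and binding was not measured.

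All 10 genes were detected in both libraries, from Ctnnb1 with 16336 and 14326 counts to Axin2 with 82 and 48. Together they took 0.137% and 0.141% of the counts. All 10 had a mean TPM of at least 1, as did 52.7% of the genes in the table. TPM was computed per kb with the length deposited beside the counts, which covers each gene from start to end including introns (span length), and again with the union of its exons in GENCODE M21 (exonic length). The choice matters for these genes. Over all genes with a value the span was a median of 6.002 times the exonic length, and 9 of the 10 genes were above that. Levels of the 10 genes are therefore given on both scales, span TPM first. The study states that intronic reads are rare in these mRNA data. Dividing by a span with introns thus lowers the TPM of genes with long introns, and exonic length matches the counted fragments more closely. All 10 genes are autosomal, on 8 chromosomes, and their spans are given in mm10 as deposited.

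Lrp6 (chr6:134446477-134566913, minus strand) encodes the co-receptor that binds Axin once Wnt has bound. It had 3609 and 3278 counts, or 20.2 and 24.1 span TPM (22.1 ± 2.75, SD, n = 2) and 51.2 and 57.9 exonic TPM (54.6 ± 4.69). Its paralog Lrp5 had 212 and 95 counts and a mean of 3.65 exonic TPM. The Lrp6 level was 10.9 times that of Lrp5 in replicate 1 and 22.1 times in replicate 2 on the exonic scale, so Lrp6 was the more abundant in both libraries while the size of the gap moved.

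Ctnnb1 (chr9:120933399-120960507, plus strand) was by far the most abundant of the genes. It reached 406 and 468 span TPM (437 ± 43.5, SD, n = 2) and 600 and 654 exonic TPM (627 ± 38.4), which placed it at percentile 98.4 of all genes by span and 98.9 by exonic length. Its ratio to Apc, the next gene down, was 7.93 in replicate 1 and 7.39 in replicate 2 on the exonic scale. Jup, which encodes the related junction protein plakoglobin, had 110 and 71 counts, and the exonic TPM of Ctnnb1 was 132 and 179 times that of Jup.

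In the destruction complex, the scaffold gene Apc (chr18:34220983-34322190, plus strand) had 7476 and 7038 counts, or 49.8 and 61.5 span TPM and 75.6 and 88.5 exonic TPM. Its paralog Apc2 had 2 and 1 counts, which does not exceed the floor of 3. Axin1 (chr17:26138685-26195811, plus strand) encodes the scaffold on which the complex is built. It was at 10.0 and 6.38 span TPM and at 29.9 and 18.04 exonic TPM, higher in replicate 1 on both scales. Axin2 (chr11:108920348-108950781, plus strand) encodes a second Axin that the pathway itself induces. It was the least abundant of the genes by exonic length, at 2.56 and 1.86 TPM (2.21 ± 0.493, SD, n = 2), and had 1.82 and 1.40 span TPM. Ctnnb1 exceeded Axin1 by 20.1 times in replicate 1 and 36.2 times in replicate 2 in exonic TPM.

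The order of the kinase genes depended on the gene length used. Gsk3a (chr7:25228258-25237851, minus strand) had 336 and 139 counts, 23.6 and 12.8 span TPM and 19.8 and 10.2 exonic TPM. Gsk3b (chr16:38089000-38246079, plus strand) had 2450 and 2401 counts, 10.5 and 13.5 span TPM and 39.1 and 47.6 exonic TPM. The Gsk3b span is 157080 bp against 8342 bp of exons, whereas Gsk3a spans 9594 bp with 2260 bp of exons. Gsk3b was the more abundant in both libraries by exonic length, while by span length Gsk3a was higher in replicate 1 and the genes were close in replicate 2.

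Among the DNA-binding partners of beta-catenin, Tcf7 (chr11:52252603-52282571, minus strand), which encodes Tcf1, was the most abundant on both scales, at 14.4 and 12.3 span TPM and 32.5 and 26.1 exonic TPM. Lef1 (chr3:131110296-131224357, plus strand) had 409 and 337 counts, 2.42 and 2.61 span TPM and 15.5 and 15.9 exonic TPM. Tcf7l1 (chr6:72626370-72789045, minus strand), which encodes Tcf3, the repressor of the family in mESCs, had 330 and 185 counts, 1.37 and 1.01 span TPM and 14.2 and 9.92 exonic TPM. The remaining family gene, Tcf7l2, had 237 and 164 counts and 6.62 ± 0.702 exonic TPM (SD, n = 2). In shares of the summed exonic TPM of the family, Tcf7 held 45.9% ± 1.29, Lef1 24.9% ± 3.53, Tcf7l1 18.8% ± 2.44 and Tcf7l2 10.4% ± 0.197. By span length Tcf7 held 74.7% and Tcf7l1 6.62%.

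**Figure D1:**
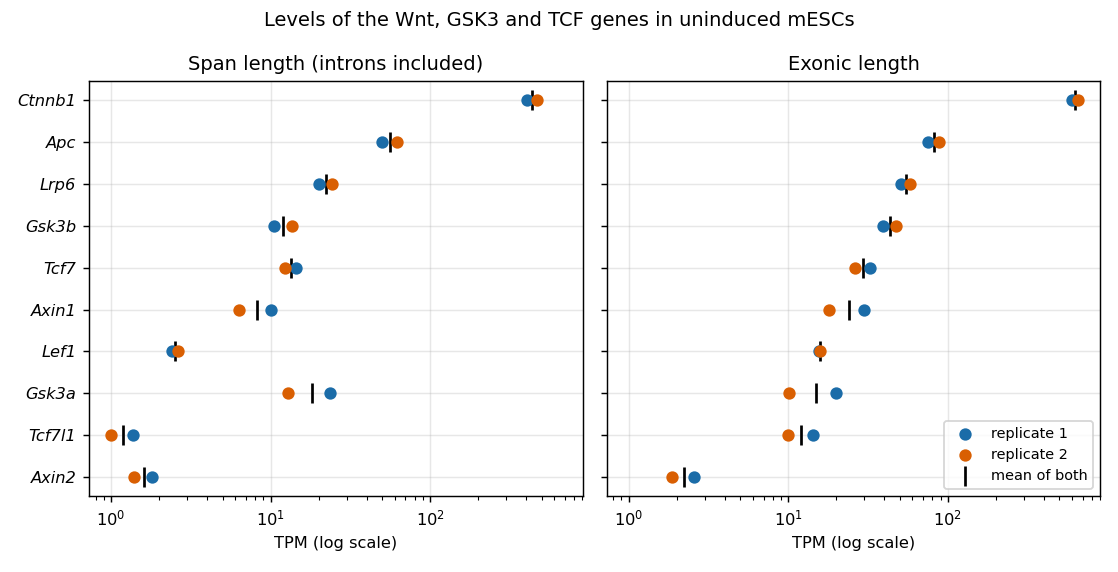
TPM of each gene on a log axis, computed with span length (left) and exonic length (right), with 1 point per replicate and a bar at their mean. Ctnnb1 lies furthest right on both scales, at 437 and 627 TPM, and Gsk3a changes place most between the scales, from rank 4 by span to rank 8 by exonic length.

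The order from high to low by exonic TPM was Ctnnb1, Apc, Lrp6, Gsk3b, Tcf7, Axin1, Lef1, Gsk3a, Tcf7l1 and Axin2. The replicate ranges of neighbours overlapped for 3 pairs, Tcf7 with Axin1, Lef1 with Gsk3a, and Gsk3a with Tcf7l1, and did not overlap for 6. The order by span TPM was Ctnnb1, Apc, Lrp6, Gsk3a, Tcf7, Gsk3b, Axin1, Lef1, Axin2 and Tcf7l1, with overlap between Lrp6 and Gsk3a, Gsk3a and Tcf7, and Tcf7 and Gsk3b. With 2 values a gene, an exact permutation test that takes them as unpaired cannot go below p = 0.333, so ranges were compared without a test. Ranges ignore that genes were measured in the same libraries. By exonic length Tcf7 was above Axin1 in both libraries (32.5 against 29.9 TPM and 26.1 against 18.04). So was Gsk3a above Tcf7l1 (19.8 against 14.2 and 10.2 against 9.92), while Lef1 and Gsk3a changed places. By span length Gsk3a was above Tcf7 in both libraries, and the other overlapping pairs changed places. The first 3 places were the same on both scales, as the plot of levels by gene shows.

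The study sorts genes into equal groups by initial expression for its comparisons of X-linked genes. Here all genes of the table with a mean TPM of at least 1, a cutoff the study does not name, were split into 3 equal groups. These are thus not the study's own groups. By span length, Ctnnb1 and Apc fell in the high group, which began at 31.9 TPM. Lrp6, Gsk3a, Gsk3b, Axin1 and Tcf7 fell in the medium group, and Lef1, Axin2 and Tcf7l1 in the low group, which ended at 6.0 TPM. By exonic length 4 genes were in the high group, since Lrp6 and Gsk3b joined, and only Axin2 was left in the low group. Lef1 and Tcf7l1 moved from low to medium.

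Levels of paralogs were then compared within each library. In the log2 ratio of TPM, Gsk3b over Gsk3a was -1.17 in replicate 1 (95% counting interval -1.33 to -0.998) and 0.08 in replicate 2 (-0.17 to 0.33) by span length. By exonic length it was 0.98 (0.82 to 1.15) and 2.23 (1.98 to 2.48). In replicate 1 the direction of this ratio therefore turned with the length. In replicate 2 the span interval included equal levels and the exonic one did not, and the gap between replicates exceeded counting error on both scales. Axin1 exceeded Axin2 on both scales and in both libraries, with log2 ratios of 2.46 and 2.19 by span and 3.55 and 3.28 by exonic length. As shares of exonic TPM, Axin1 held 91.4% ± 1.04 of the Axin pair and Gsk3b 74.4% ± 11.3 of the GSK3 pair (SD, n = 2). By span length Axin1 held 83.4% ± 1.84 and Gsk3b 41.1% ± 14.5, with Gsk3b at 30.8% in replicate 1 and 51.3% in replicate 2.

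Tcf7l1 was below Tcf7 on both scales, with log2 ratios of -3.40 and -3.61 by span and -1.19 and -1.40 by exonic length. Tcf7l1 over Lef1 was -0.82 and -1.38 by span length. By exonic length it was -0.12 in replicate 1, with a counting interval from -0.34 to 0.09 that includes equal levels, and -0.68 in replicate 2 (-0.95 to -0.42). A lower level of Tcf7l1 than of Lef1 was thus outside counting error in 1 of 2 libraries on the exonic scale and in both by span length.

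**Figure D2:**
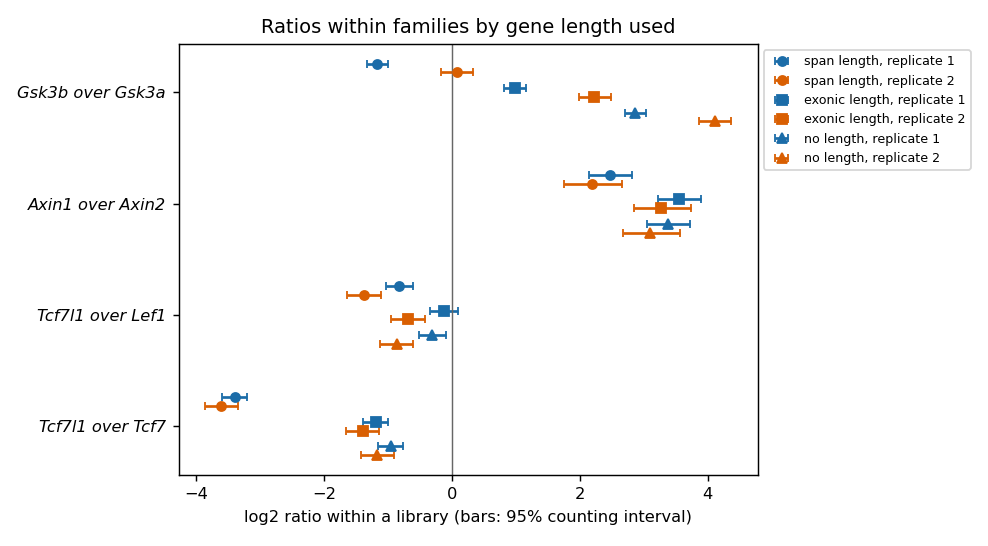
The log2 ratio of paralogs within each library, computed with span length, exonic length and no length (CPM), with 95% counting intervals as bars and 0 marking equal levels. Gsk3b over Gsk3a crosses 0 between span and exonic length in replicate 1 and moves from an interval that includes 0 to one above it in replicate 2, whereas the other ratios keep their side, with the exonic interval of Tcf7l1 over Lef1 reaching 0 in replicate 1.

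Differences between the replicates concerned most of these genes. In CPM, Gsk3a was at 14.2 and 6.86, a log2 difference of replicate 2 over replicate 1 of -1.04 (adjusted p = 4.0e-13, exact binomial test with Benjamini-Hochberg adjustment). Axin1 was at 35.8 and 20.3 CPM (log2 difference -0.82). Gsk3a and Axin1 thus differed most, and Tcf7l1 (-0.61, from 13.9 to 9.12 CPM) and Tcf7 (-0.40, from 27.0 to 20.5 CPM) also passed the test as lower in replicate 2. Higher in replicate 2 were Gsk3b (0.20), Apc (0.14), Lrp6 (0.09) and Ctnnb1 (0.04), whose log2 differences were small but rested on at least 2401 counts per library. For Ctnnb1 the exact binomial test gave an adjusted p of 0.044 by total counts and 0.054 when all genes with a count were tested. Axin2 (-0.54, 95% counting interval -1.09 to -0.02, adjusted p = 0.068 in the exact binomial test) and Lef1 (-0.05, interval -0.27 to 0.16, adjusted p = 0.70) did not pass. In all 8 of 10 genes passed, 4 in each direction, beside 60.8% of all genes tested, which divide into 15.1% higher and 45.7% lower. The median log2 difference of the 10 genes was -0.23 against -0.31 over all genes tested.

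The direction went with base composition. The 4 genes higher in replicate 2 had a GC content of 44.3% to 50.3% in their longest transcript, and the 4 lower had 52.3% to 59.8%. The same trend ran through the whole table, with GC-rich genes lower in replicate 2, and a curve through 9244 autosomal genes lowered the SD of the log2 differences from 0.53 to 0.42. Measured from that curve, Gsk3a was at -0.27, Axin1 at -0.07, Tcf7 at 0.16 and Tcf7l1 at 0.17, and none of these 4 passed. Ctnnb1 was at 0.47, Lef1 at 0.45, Gsk3b at 0.34, Lrp6 at 0.22 and Apc at 0.15, and these 5 passed as higher. Against the curve 44.6% of 14397 genes passed, 23.0% of genes tested as higher and 21.6% as lower in replicate 2, and 0 of the 10 genes were lower. Scaling with TMM factors, which shifts every log2 difference by 0.22, called 7 of the 10 genes, 4 higher and 3 lower (Tcf7 no longer passed) and 57.8% of all genes tested, 27.0% as higher and 30.7% as lower. On this scale Lef1 was at 0.17 and still did not pass. DESeq2 size factors, which shift every log2 difference by 0.31, called 5 genes higher and 3 lower, and 57.8% of all genes tested, 31.6% as higher and 26.1% as lower. Lef1 then passed as higher (0.26, adjusted p = 0.028 in the exact binomial test) and Tcf7 did not pass. The part of GC content, of library preparation and of the pluripotency marker levels in these differences was not tested.

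**Figure D3:**
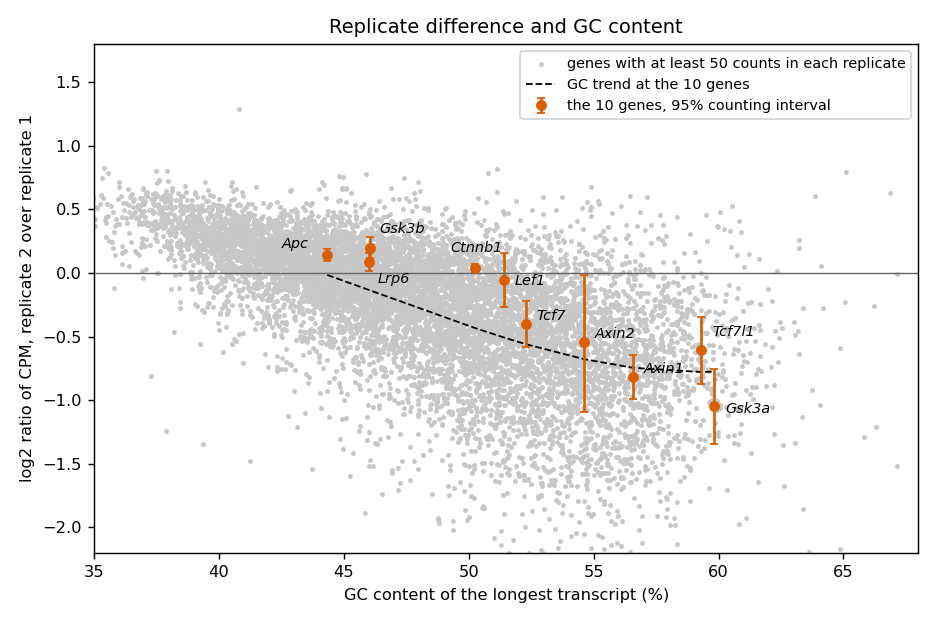
The log2 ratio of CPM (replicate 2 over replicate 1) against GC content of the longest transcript, with genes of at least 50 counts in each replicate in grey, the 10 genes in orange with 95% counting intervals, and the GC trend as a dashed line; a few grey points lie outside the axes. The intervals of Gsk3a, Axin1, Axin2, Tcf7 and Tcf7l1 reach the trend, and those of Ctnnb1, Lef1, Gsk3b, Lrp6 and Apc lie above it.

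The reads could be assigned to these genes with few conflicts. None of the 10 genes was overlapped by another gene on its strand. On the opposite strand 4 were overlapped (Gsk3a, Gsk3b, Apc and Tcf7l1), by genes with at most 18 counts, and counting was strand-specific. Of the 50-base words in the longest transcript, Gsk3a shared 1.49%, Apc 0.407% and Gsk3b 0.0242% with transcripts of other genes, and the other 7 shared none.

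The rest of the pathway was described from 11 lists with 109 genes, of which 68 had a mean span TPM of at least 1. The upstream end was the least expressed. Of 19 Wnt ligand genes only Wnt16 reached 1 span TPM (40 and 55 counts, 3.67 ± 1.49, SD, n = 2), and by exonic length Wnt5b did too (43 and 32 counts). Next by span TPM were Wnt8a, with 8 and 2 counts, and Wnt9a, with 13 and 6. The ligand list summed to 143 and 112 counts, and 11 ligand genes had at most 3 counts in each library. Wls and Porcn, needed for ligand secretion, were at 7.19 ± 1.09 and 5.61 ± 2.21 span TPM and at 34.9 and 7.26 exonic TPM, and Porcn is X-linked.

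Of 14 receptor genes 13 reached 1 span TPM and 11 reached 1 exonic TPM, with medians of 9.06 and 4.16. The highest span levels were those of the Frizzled genes Fzd7 (154 ± 20.5) and Fzd5 (120 ± 3.42) and of Ryk, an atypical Wnt receptor (33.3 ± 2.42). By exonic length Ryk led with 161 TPM, while Fzd7 and Fzd5 were at 31.4 and 24.0. Among 9 genes of receptor turnover and R-spondin signalling, 2 reached 1 span TPM and 3 reached 1 exonic TPM. The 2 were Lgr4 (61.0 ± 9.89), an R-spondin receptor, and Znrf3 (7.34 ± 0.626), which removes Frizzled from the membrane. Their exonic TPM was 223 and 30.03. Rspo3, an R-spondin, was at 0.602 span TPM and 3.08 exonic TPM. Of 14 antagonist genes, which encode secreted proteins apart from the membrane receptors Kremen1 and Kremen2, 6 reached 1 span TPM and 6 reached 1 exonic TPM, and the highest by span were Sfrp4 (35.4), Sfrp1 (31.0) and Sfrp2 (19.5), decoys that bind Wnt. By exonic length Sfrp1 led at 52.1 TPM, with Sfrp4 at 15.7 and Sfrp2 at 14.9.

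All 11 cytoplasmic transducers reached 1 span TPM, with Csnk1a1, the kinase that primes beta-catenin for GSK3, far ahead at 794 ± 160. Frat2, a GSK3-binding protein, was at 36.9 ± 11 and the kinase gene Csnk1d at 32.7 ± 7.34. In exonic TPM Csnk1a1 was at 776, Frat2 at 7.12 and Csnk1d at 50.0. Of 10 partners of the destruction complex 9 did, all but Apc2, and the highest were Skp1a (1228 ± 75.8), of the ubiquitin ligase, Ppp2ca (405 ± 51.8), a phosphatase subunit, and Tnks2 (284 ± 37.7), which marks Axin for degradation. By exonic length Skp1a was at 1884 TPM, Tnks2 at 498 and Ppp2ca at 262, so the order of the latter pair turned. The median span TPM of these partners was 32.4, above the median of 12.7 over the 10 Wnt, GSK3 and TCF genes and of 1.35 over all genes in the table.

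Of 14 nuclear partners 12 reached 1 span TPM, led by the coactivator Ep300 (27.4) and the corepressors Tle4 (24.7) and Tle1 (19.3). By exonic length the order turned, with Tle4 at 155 TPM, Tle1 at 66.2 and Ep300 at 36.2. Tcf7l2 was below 1 by span (0.795) and above it by exonic length. All 4 junction partners of beta-catenin reached 1 span TPM, with Cdh1 at 50.0 ± 6.87, Ctnna1 at 43.2 ± 0.791 and Ctnnd1 at 34.8 ± 0.365. In exonic TPM Ctnna1 led at 302, with Cdh1 at 145 and Ctnnd1 at 51.9. The median of these junction partners was 39.0 span TPM, against 3.29 over all 11 lists together.

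Of 8 feedback and target genes, 4 reached 1 span TPM, which were Ccnd1 (75.7 ± 12.0), T (6.02 ± 2.00), Nkd2 (2.58 ± 0.329) and Myc (2.31 ± 0.528). By exonic length 3 did, Ccnd1 at 38.7, T at 4.59 and Nkd2 at 3.50, with Myc at 0.915. Nkd1 had 31 and 11 counts, Sp5 3 and 1, Cdx1 0 and 1 and Cdx2 0 in both, so 3 of these genes were at or below the floor. T (Brachyury), Nkd1, Nkd2, Sp5 and Axin2 are commonly used as readouts of beta-catenin with TCF in embryonic cells, and Axin2, at 2.21 exonic TPM, lay below T and Nkd2 and above Nkd1 (0.652) and Sp5 (0.134). The order by span TPM was T, Nkd2, Axin2 (1.61), Sp5 (0.518) and Nkd1 (0.208). The 4 genes known to be repressed by Tcf7l1 in mESCs were at 774 ± 35.1 exonic TPM (Nanog), 110 ± 35.3 (Klf2), 98.8 ± 17.3 (Tfcp2l1) and 74.1 ± 39.8 (Esrrb, 102 in replicate 1 and 45.9 in replicate 2; SD, n = 2), each above the 12.1 exonic TPM of Tcf7l1 itself. In span TPM they were at 1264, 407, 83.1 and 13.4, above the 1.19 of Tcf7l1. All 4 were lower in replicate 2 in the exact binomial test by total counts, as were 45.7% of all genes tested. Nanog (-0.18 by total counts) passed as higher with TMM factors (0.04) and DESeq2 size factors (0.13), and Klf2 did not pass against the GC curve (-0.01). Tfcp2l1 (-0.45 by total counts) and Esrrb (-1.24) were lower under all 4 of these scalings. Tcf7l1 was lower by total counts (-0.61), with TMM factors (-0.38) and with DESeq2 size factors (-0.30), but did not pass against the GC curve (0.17).

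Over the 11 lists, 84 genes were tested between the replicates, of which 14 were higher in replicate 2, 32 were lower and 38 did not pass. Thus 54.8% passed and 38.1% were lower, beside 60.8% and 45.7% over all genes tested. Of the lists with at least 9 genes tested, 7 of 11 transducers, 4 of 9 destruction complex partners, 6 of 14 nuclear partners and 1 of 14 receptors were lower. In the same order 2, 4, 3 and 0 were higher, beside 15.1% of all genes tested. These calls are by total counts, and the share of all genes called lower was 30.7% with TMM factors and 26.1% with DESeq2 size factors. The median log2 difference was -0.23 over the lists, the same to 2 decimals as over the 10 genes.

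**Figure D4:**
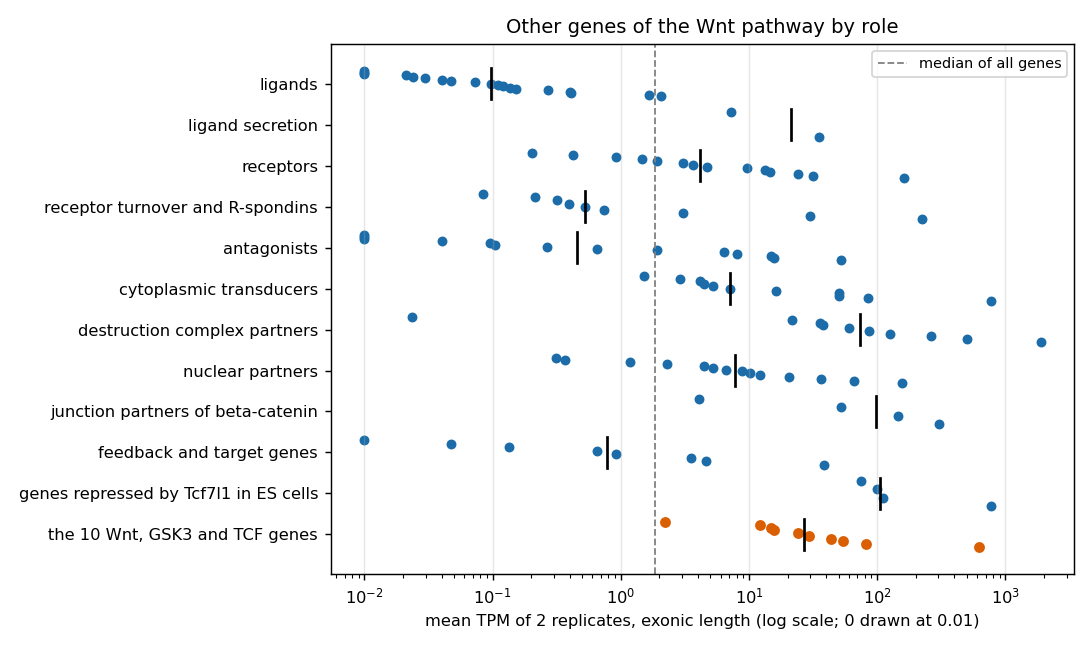
Mean exonic TPM of the 2 replicates on a log axis for each gene of the 11 lists (blue) and for the 10 Wnt, GSK3 and TCF genes (orange), with black bars at list medians, a dashed line at the median of all genes (1.86 TPM) and genes at 0 drawn at the left end. Ligands lie lowest, and partners of the destruction complex and of junctions, with the genes repressed by Tcf7l1, lie highest by their medians.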

How the data were processed

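Messenger RNA was isolated on oligo-dT beads and libraries were made with a stranded kit. The authors counted fragments per gene with featureCounts 1.5.2, in paired, reverse-stranded mode over transcript features, so introns were included, and deposited the raw counts. The submitters' processing notes name Bowtie2 2.3.2, STAR 2.4.2a and the build mm10. Of 21161 genes found in RefSeq by symbol, the deposited start lay 1 base before the RefSeq start for 12335 and equalled it for 722. Columns were matched to samples by names that differ by 1 letter and by separators.

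TPM and CPM were computed from the deposited counts. Exonic lengths and GC content came from GENCODE M21 (basic set), with 21239 genes found by current symbols and 887 by older ones. Replicates were compared with a two-sided exact binomial test (scipy 1.17.1) against the ratio of totals, over genes whose summed count was at least 10, with Benjamini-Hochberg adjustment at 0.05. Log2 differences used 0.5 added counts, and intervals were Clopper-Pearson (95%). Only the binomial test was tried on simulated data, which held known changes and counting error but no other variation between libraries. Alternatives used edgeR 4.0.16 TMM factors, DESeq2 1.42.0 size factors and a GC trend of degree 3. Named were the 10 genes, their paralogs Tcf7l2, Lrp5, Apc2 and Jup, the 3 genes of each list with the highest span TPM and all target genes. Wnt5b and the markers were named after their values were seen. The genes, lists and tests were chosen with earlier results of these data known.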

Additional observations from a re-analysis of the deposited data

How the results depend on the processing

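No paired analysis was possible because only 1 group was sequenced. Over 29 values and 158 alternatives, 98 kept direction and side of the threshold, moved by at most the replicate spread or, for a count of genes, stayed within 1.5 times. Of the rest, 45 moved, 5 no longer passed and 10 turned direction. A minimum of 5 TPM in place of 1 left 7 of the 10 genes and 51 of the 68 pathway genes, and a minimum of 0.1 TPM gave 10 and 89. The median TPM of the 10 genes was 12.7 by span, 26.6 by exonic length, 26.0 by longest transcript (chosen after seeing the data) and 25.9 in CPM, and 12.5 in either replicate alone. The high group held 2 genes by span, and 4 by exonic length or when all genes with a count were split. Against the GC trend 5 genes differed between replicates in place of 8. The mean log2 ratio of Gsk3b over Gsk3a was -0.54 by span but 1.60 by exonic length, 1.61 by longest transcript and 3.49 with no length, and -1.17 to 0.077 with 1 replicate left out. With the same 3 alternatives, Axin1 over Axin2 went from 2.33 to 3.41, 3.41 and 3.24, Tcf7l1 over Lef1 from -1.10 to -0.40, -0.39 and -0.59, and Tcf7l1 over Tcf7 from -3.50 to -1.29, -1.36 and -1.06. The lengths alone set these shifts. Replicate differences turned from lower to higher against the GC trend for Axin2 (0.14), Tcf7l1 (0.17), Tcf7 (0.16) and Lef1 (0.45), by the size of the curve subtracted at their GC content. Lef1 (-0.05) turned with TMM factors (0.17) and DESeq2 size factors (0.26), which add the same shift to every gene. The scalings of the genes repressed by Tcf7l1 were also chosen after seeing the data. Leaving out a replicate could not be run for the replicate difference. With 2 libraries, the depth limits Axin2 most, with 82 and 48 counts.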
